A study of Mus musculus with 24 samples.

Results

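The Hox genes were examined in RNA sequencing of 12 mouse lungs and 12 mouse retinas, with no animal giving both. The members were all genes named Hoxa, Hoxb, Hoxc or Hoxd with a number, which gave 39 genes of 36109 listed in the lung and 36595 listed in the retina, of which 38 are described, with 10 in the Hoxa cluster, 10 in Hoxb, 9 in Hoxc and 9 in Hoxd. Each tissue had 4 groups of 3 mice: WT-RA and WT-O2 were wild-type pups kept in room air or hyperoxia, and KO-RA and KO-O2 were the GSDMD-KO pups kept likewise. Lungs were collected at postnatal day 15 from pups kept in 85% or 21% oxygen from day 1 to day 14. Retinas were collected at day 18 from pups kept in 75% oxygen from day 7 to day 12 and then in room air, or in room air throughout. GSDMD-KO mice carry a germline CRISPR/Cas9 deletion within an exon of Gsdmd, the pore-forming effector of pyroptosis, on a C57/B6 background, so every cell of the animal lacks the intact gene, and the wild types were littermates.

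Hox genes encode homeodomain transcription factors that give body regions their identity along the head-to-tail axis. Mammals carry them in clusters named A to D, in which the order of the genes along the chromosome matches the order of their territories: low-numbered paralog groups act towards the head and high-numbered groups towards the tail. The lung arises from foregut and its mesenchyme carries a Hox code of the lower groups, with Hoxa5 required for normal lung and trachea formation. The retina arises from the forebrain, which lies in front of the Hox territories.

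Of the 38 Hox genes, 13 were expressed in the lung and 0 in the retina, where expressed means a mean of at least 1 CPM (read counts scaled to library size by the TMM method) in at least 1 group. The 13 were Hoxa2 to Hoxa7 (6 genes) and Hoxb2 to Hoxb8 (7 genes), 11 of them at 1 CPM or more in all 12 lungs. The other 25 reached no more than 0.866 CPM as a group mean in the lung, a value held by Hoxd9 in KO-RA, followed by Hoxd8 at 0.763 CPM in KO-RA, Hoxc4 at 0.570 CPM in KO-O2 and Hoxb9 at 0.417 CPM in KO-O2. The lowest of the 13, Hoxa6, peaked at a group mean of 1.99 CPM. In single lungs the sets overlapped, since Hoxd8 and Hoxd9 reached 1.05 and 1.03 CPM and Hoxc4 slightly more while Hoxa6 and Hoxb8 went down to 0.791 and 0.698 CPM. With a threshold of 2 CPM 12 genes counted as expressed, and with 0.5 CPM 16 did. The Hoxc and Hoxd clusters, with 9 genes each, had 0 expressed members in either tissue.

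The expressed genes formed an unbroken run in each of the A and B clusters. Of the 7 members described in paralog groups 1 to 3, 4 were expressed in the lung, of the 15 in groups 4 to 8, 9 were, and of the 16 in groups 9 to 13, 0 were. Groups 9 to 13 together contributed 0.233% to 0.910% of the Hox reads of a lung. Clusters A and B held 98.7% to 99.7% of the Hox reads of every lung. Hoxa11 and Hoxd12 had 0 counts in all 12 lungs, which allows a level of up to 0.101 to 0.104 CPM per library, the level that 3 counts represent. These limits, and all values below about 1 CPM, cover counting error only.

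**Figure D1:**
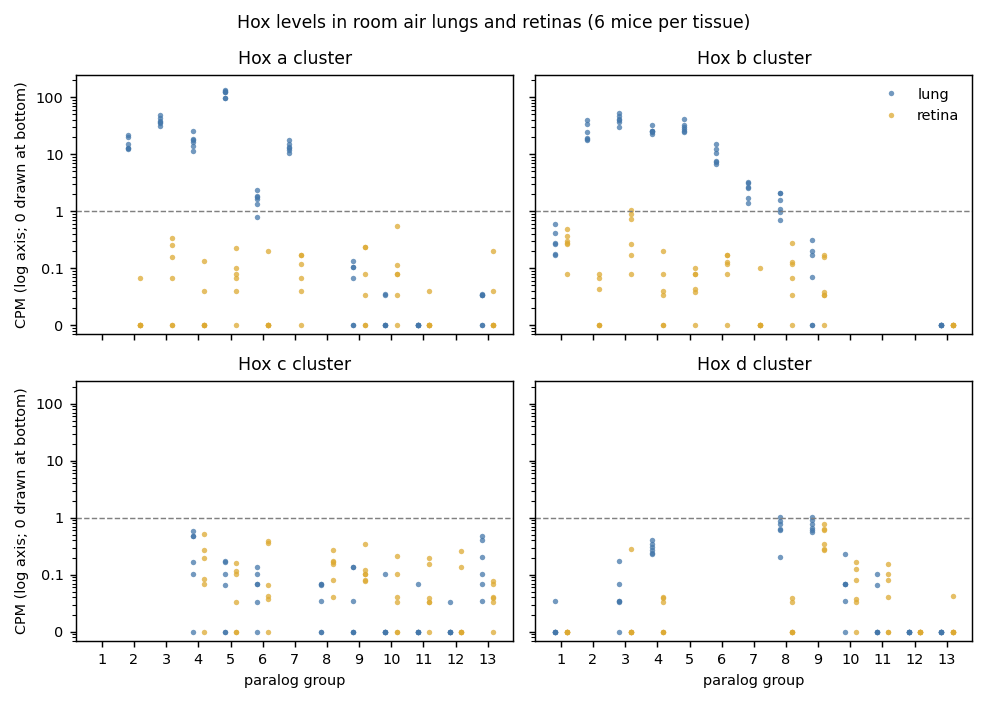
CPM of each Hox gene in the 6 room air lungs (blue) and 6 room air retinas (yellow), by cluster and paralog group, on a log axis with 0 drawn at the bottom and a dashed line at 1 CPM. Lung points lie above the line for Hoxa2 to Hoxa7 and Hoxb2 to Hoxb8, apart from 1 lung at Hoxa6 and 2 at Hoxb8, while retina points lie below it for all genes but Hoxb3 in 1 retina, at 1.03 CPM.

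Hoxa5 was the most abundant Hox gene of the lung. Per kilobase of its longest annotated transcript its level in room air was 62.1 CPM, against 16.03 for its paralog Hoxb5, 15.7 for Hoxb2, 15.1 for Hoxa3, 12.9 for Hoxb3, 10.8 for Hoxa4, 10.1 for Hoxb4 and 8.89 for Hoxa2. Below them came Hoxa7 at 6.71, Hoxb6 at 5.03, Hoxb7 at 1.90, Hoxa6 at 1.86 and Hoxb8 at 0.535 CPM per kilobase. In WT-RA the levels of Hoxb5 (16.7 ± 4.87 CPM per kilobase, SD, n = 3), Hoxb2 (15.5 ± 7.52) and Hoxa3 (15.01 ± 3.60) lay within each other's SD, so their order was not resolved. With the median transcript length in place of the longest, Hoxa5 stayed highest at 62.1 and the next were Hoxa3 at 26.6, Hoxb3 at 21.8 and Hoxa7 at 18.6 CPM per kilobase, so the ranks below Hoxa5 depended on the transcript model. Hoxa5 alone held 37.0% ± 4.90 of the Hox reads in WT-RA (SD, n = 3).

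In the retina the Hox genes together summed to 2.43 to 5.09 CPM per library, against 176 to 428 CPM in the lung. The tables of the tissues were made separately, so the levels stand side by side without a test. The highest retinal group means were Hoxd9 at 0.603 CPM (KO-O2), Hoxb3 at 0.568 CPM (WT-RA) and Hoxc4 at 0.514 CPM (KO-O2). Hoxa5, the leading gene of the lung, ranged from 0 to 0.308 CPM over the 12 retinas. Hoxd1 had 0 counts in all of them. Posterior groups 9 to 13 held 23.4% to 52.3% of these few retinal Hox reads, and clusters A and B held 31.9% to 62.4%.

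The labelled tissues carried their own markers. Lung epithelial markers (10 genes) summed to 20978 to 35772 CPM in lungs and retinal markers (12 genes) to 39219 to 58891 CPM in retinas, and Hox cofactors of the Pbx, Meis and Pknox families, the homeodomain partners that bind DNA with Hox proteins, were present in both (402 to 493 CPM in lungs and 329 to 383 CPM in retinas, summed over 9 genes). Gsdmd in lungs was 32.2 to 42.3 CPM in the 6 wild types and 11.7 to 24.8 CPM in the 6 GSDMD-KO mice, without overlap. In retinas the library labelled WT-RA replicate 2 had 0.419 CPM of Gsdmd, below every GSDMD-KO retina (0.638 to 2.95 CPM), so the retinal genotype labels could not be checked in this way. Library totals were 28763661 to 29604254 counts in the lung and 24863257 to 29093035 in the retina. Reads of Y-linked genes marked 0 of 3 mice as male in WT-RA lungs, 1 of 3 in WT-O2, 2 of 3 in KO-RA and 3 of 3 in KO-O2, and in retinas 3 of 3 in both room air groups and 1 of 3 in both hyperoxia groups, so sex was not balanced over the groups.

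The effect of hyperoxia on the lung Hox code was examined next. The summed Hox level was 307, 328 and 428 CPM in the 3 WT-RA lungs and 176, 212 and 206 CPM in the 3 WT-O2 lungs. In GSDMD-KO mice it was 379.7, 316 and 304 CPM in room air and 242, 239.6 and 204 CPM in hyperoxia. Every hyperoxic lung thus lay below every room air lung of its genotype, with room air over hyperoxia ratios of 1.79 in wild type and 1.46 in GSDMD-KO. The highest value, 428 CPM, belonged to WT-RA replicate 3, which was the highest WT-RA lung for 12 of the 13 expressed genes, and without it the wild-type ratio was 1.60. In bulk tissue, fewer cells of a type and less RNA per cell cannot be told apart.

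Of the 18 Hox genes that passed the filter on low counts, 9 were lower in WT-O2 than in WT-RA at an adjusted p under 0.1 (edgeR quasi-likelihood test, Benjamini-Hochberg over all genes), against 24.7% of all 16819 genes tested, and 3 were higher, against 24.5%. With a fold change of at least 2 as well, which is how a call is defined here, 3 were lower (6.57% of all genes) and 3 higher (5.04%). In GSDMD-KO lungs 6 of the 18 were lower (23.4% of all genes) and 1 higher (23.3%), with 1 called lower (6.03%) and 1 called higher (4.57%). The 3 higher genes of wild type were 1 without WT-O2 replicate 1, the 3 called lower there were 5 without WT-RA replicate 2, and the gene called lower in GSDMD-KO was joined by 1 or 2 others when any of 6 mice was left out. The share of all genes was not taken in these smaller fits. All 6 genes lower in GSDMD-KO were also among the 9 of wild type: Hoxa2, Hoxa3, Hoxa5, Hoxb3, Hoxb4 and Hoxd9. The median log2 fold change of the 18 was -0.36 in wild type and -0.32 in GSDMD-KO, where that of all genes was -0.01 in both. The remaining 20 of the 38 were too low to be tested, and 5 of the 18 (Hoxb1, Hoxc4, Hoxc13, Hoxd8 and Hoxd9) were below 1 CPM in every group, where a gene can pass the filter through the group in which it is high.

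**Figure D2:**
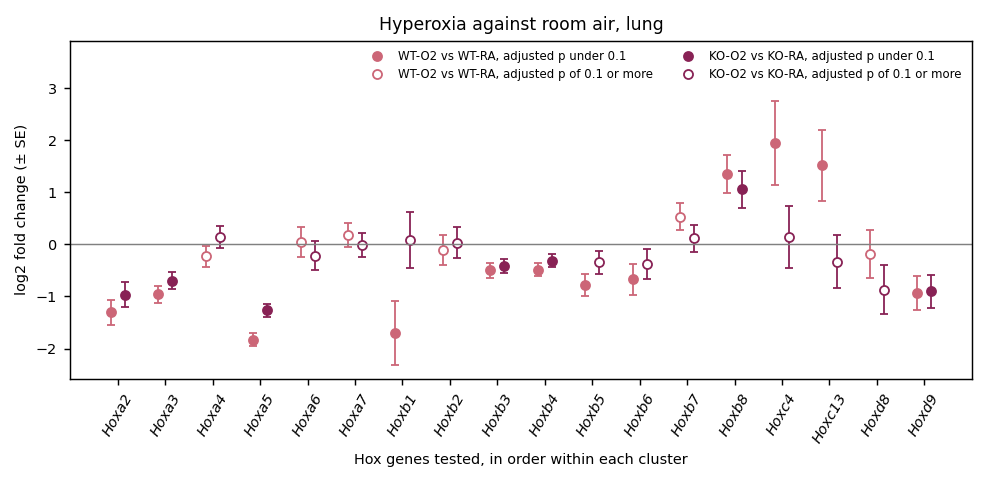
Log2 fold changes of hyperoxia against room air for the 18 Hox genes tested in the lung, in wild type and GSDMD-KO, with their SE. Filled points passed an adjusted p of 0.1 and open points did not. Hoxa5 has the lowest value in GSDMD-KO and in wild type, and Hoxb8 is the highest in GSDMD-KO.

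Hoxa5 showed the strongest fall. Its level was 125, 127 and 135 CPM in WT-RA and 30.5, 39.8 and 38.2 CPM in WT-O2. It was 122, 95.0 and 96.8 CPM in KO-RA and 46.6, 47.3 and 36.2 CPM in KO-O2. The room air and hyperoxia lungs were far apart in both genotypes. The log2 fold change was -1.83 (SE 0.13, edgeR adjusted p = 9.22e-08) in wild type and -1.27 (SE 0.13, edgeR adjusted p = 3.17e-06) in GSDMD-KO. Hoxa5 therefore made up 18.2% ± 0.742 of the Hox reads in WT-O2 and 18.9% ± 1.07 in KO-O2, against 37.0% ± 4.90 in WT-RA and 31.3% ± 1.10 in KO-RA (SD, n = 3).

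The anterior Hoxa genes Hoxa2 and Hoxa3, patterning genes of the hindbrain and pharyngeal region, fell as well. Hoxa2 was 12.9, 14.9 and 21.7 CPM in WT-RA and 6.55, 8.36 and 5.13 CPM in WT-O2, a log2 fold change of -1.30 (SE 0.24, edgeR adjusted p = 0.00089). In KO-RA it was 20.1, 12.9 and 12.3 CPM and in KO-O2 6.89, 9.06 and 7.26 CPM, a log2 fold change of -0.96 (SE 0.24, edgeR adjusted p = 0.00665). Its hyperoxia and room air values did not overlap in either genotype. Hoxa3 was 31.6, 35.7 and 49.4 CPM in WT-RA and 15.5, 23.7 and 20.9 CPM in WT-O2 (log2 fold change -0.96, SE 0.16, edgeR adjusted p = 0.000457). Its values were 42.4, 37.7 and 37.5 CPM in KO-RA and 25.6, 23.7 and 23.0 CPM in KO-O2 (log2 fold change -0.70, SE 0.16, edgeR adjusted p = 0.00418). These values also did not overlap.

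Hoxa4, which lies between Hoxa3 and Hoxa5, did not pass the test. It was 13.8, 18.2 and 25.7 CPM in WT-RA and 14.5, 19.1 and 15.5 CPM in WT-O2 (log2 fold change -0.23, SE 0.21, edgeR adjusted p = 0.406). In GSDMD-KO it was 18.04, 16.6 and 11.3 CPM in room air and 16.1, 17.98 and 16.8 CPM in hyperoxia (log2 fold change 0.15, SE 0.21, edgeR adjusted p = 0.615). The groups overlapped in both genotypes. Hoxa6 and Hoxa7, on the far side of Hoxa5 in the run, did not pass either, with log2 fold changes of 0.04 and 0.18 in wild type and -0.21 and -0.01 in GSDMD-KO. Of the 6 expressed Hoxa genes described, 3 were thus lower and 3 did not pass the test, in each genotype.

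The ratio of Hoxa5 to Hoxa4 within a lung shows the uneven change directly, as a description without a test. It was 5.24 to 9.07 in WT-RA and 2.08 to 2.47 in WT-O2, and 5.73 to 8.55 in KO-RA and 2.16 to 2.89 in KO-O2. The ratio of Hoxa3 to Hoxa4 was 1.92 to 2.29 in WT-RA and 1.07 to 1.35 in WT-O2, and 2.27 to 3.31 in KO-RA and 1.32 to 1.59 in KO-O2. Between paralogs, the ratio of Hoxa5 to Hoxb5 was 3.18 to 5.01 in WT-RA and 1.66 to 2.21 in WT-O2, and 3.20 to 3.91 in KO-RA and 1.84 to 1.94 in KO-O2. All 3 ratios were lower in every hyperoxic lung than in every room air lung of the same genotype. They divide counts of the same library, so the scaling between libraries cancels.

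**Figure D3:**
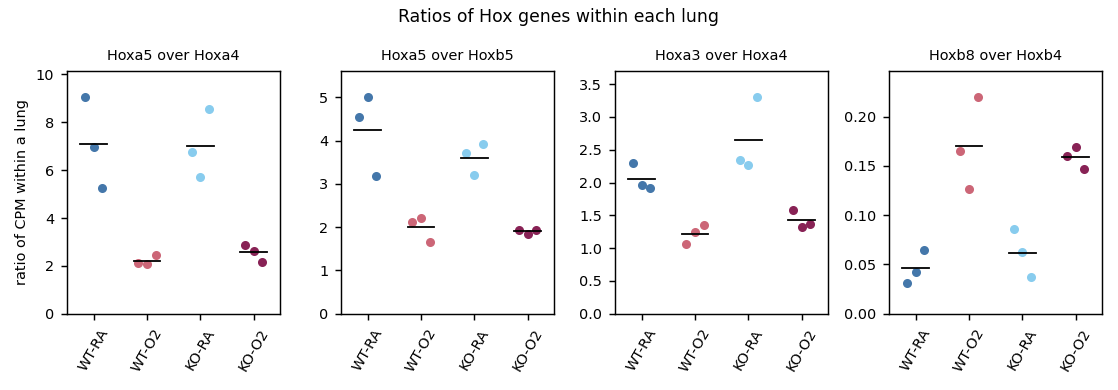
Ratios of the CPM of Hox genes within each lung by group, with each point a mouse and the line the mean of 3. Hoxa5 over Hoxa4, Hoxa5 over Hoxb5 and Hoxa3 over Hoxa4 are lower in hyperoxia in both genotypes, and Hoxb8 over Hoxb4 is higher, with no overlap between exposures within a genotype.

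Among the expressed Hoxb genes, 4 were lower in wild type, with log2 fold changes of -0.78 to -0.48. Hoxb5 was 27.5, 25.3 and 42.3 CPM in WT-RA and 14.5, 18.03 and 23.0 CPM in WT-O2 (log2 fold change -0.78, SE 0.22, edgeR adjusted p = 0.0127). In GSDMD-KO it was 32.8, 29.7 and 24.8 CPM in room air and 24.2, 25.7 and 18.7 CPM in hyperoxia, which overlapped (log2 fold change -0.35, SE 0.21, edgeR adjusted p = 0.228). Hoxb5 therefore passed the test in wild type but not in GSDMD-KO, and the difference between the genotypes was itself 0.43 (SE 0.30, edgeR adjusted p = 0.874 for the interaction).

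Hoxb3 was 29.9, 36.1 and 47.0 CPM in WT-RA and 26.5, 25.7 and 27.7 CPM in WT-O2 (log2 fold change -0.50, SE 0.14, edgeR adjusted p = 0.0121). In GSDMD-KO it was 52.8, 39.8 and 41.6 CPM against 35.7, 33.4 and 31.3 CPM (log2 fold change -0.42, SE 0.14, edgeR adjusted p = 0.0314). The exposures did not overlap in either genotype. Hoxb4 was 22.4, 25.5 and 31.9 CPM in WT-RA and 17.1, 19.9 and 20.1 CPM in WT-O2 (log2 fold change -0.48, SE 0.12, edgeR adjusted p = 0.00532). In GSDMD-KO its values were 24.3, 25.3 and 25.6 CPM against 21.8, 20.5 and 18.2 CPM (log2 fold change -0.31, SE 0.12, edgeR adjusted p = 0.0535). Hoxb4 too was lower in every hyperoxic lung of both genotypes. In GSDMD-KO, Hoxb3 missed the threshold without KO-RA replicate 1 (log2 fold change -0.28, edgeR adjusted p = 0.15) and Hoxb4 without any of 4 lungs (-0.32 to -0.25). Hoxb6 changed by -0.67 on the log2 scale in wild type (edgeR adjusted p = 0.0866), with overlapping values, and by -0.24 without WT-RA replicate 3 (edgeR adjusted p = 0.434). It missed the threshold when any of 7 lungs was left out (edgeR adjusted p of 0.104 to 0.434) and in 10 of the 18 alternatives run, these 7 included.

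Hoxb2, at the head end of the expressed Hoxb run, did not pass the test. It was 18.2, 18.1 and 39.4 CPM in WT-RA and 24.6, 22.4 and 23.3 CPM in WT-O2 (log2 fold change -0.10, SE 0.29, edgeR adjusted p = 0.805), where a single WT-RA lung was high. In GSDMD-KO it was 34.2, 24.3 and 19.6 CPM in room air and 29.5, 25.7 and 24.8 CPM in hyperoxia (log2 fold change 0.03, SE 0.29, edgeR adjusted p = 0.937). Hoxb7 changed by 0.53 in wild type (edgeR adjusted p = 0.122) and 0.12 in GSDMD-KO on the log2 scale and passed in neither.

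Hoxb8, at the tail end of the run, was the only expressed member that rose. It was 0.698, 1.08 and 2.06 CPM in WT-RA and 2.83, 2.51 and 4.42 CPM in WT-O2 (log2 fold change 1.34, SE 0.36, edgeR adjusted p = 0.00889). In GSDMD-KO it was 2.08, 1.59 and 0.949 CPM in room air and 3.499, 3.47 and 2.68 CPM in hyperoxia (log2 fold change 1.06, SE 0.36, edgeR adjusted p = 0.0305). The exposures did not overlap in either genotype. The GSDMD-KO value was 0.80 without KO-RA replicate 3 and did not pass the threshold there (edgeR adjusted p = 0.12). The ratio of Hoxb8 to Hoxb4 within a lung was 0.0311 to 0.0647 in WT-RA and 0.126 to 0.220 in WT-O2, and 0.0370 to 0.0858 in KO-RA and 0.147 to 0.169 in KO-O2.

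**Figure D4:**
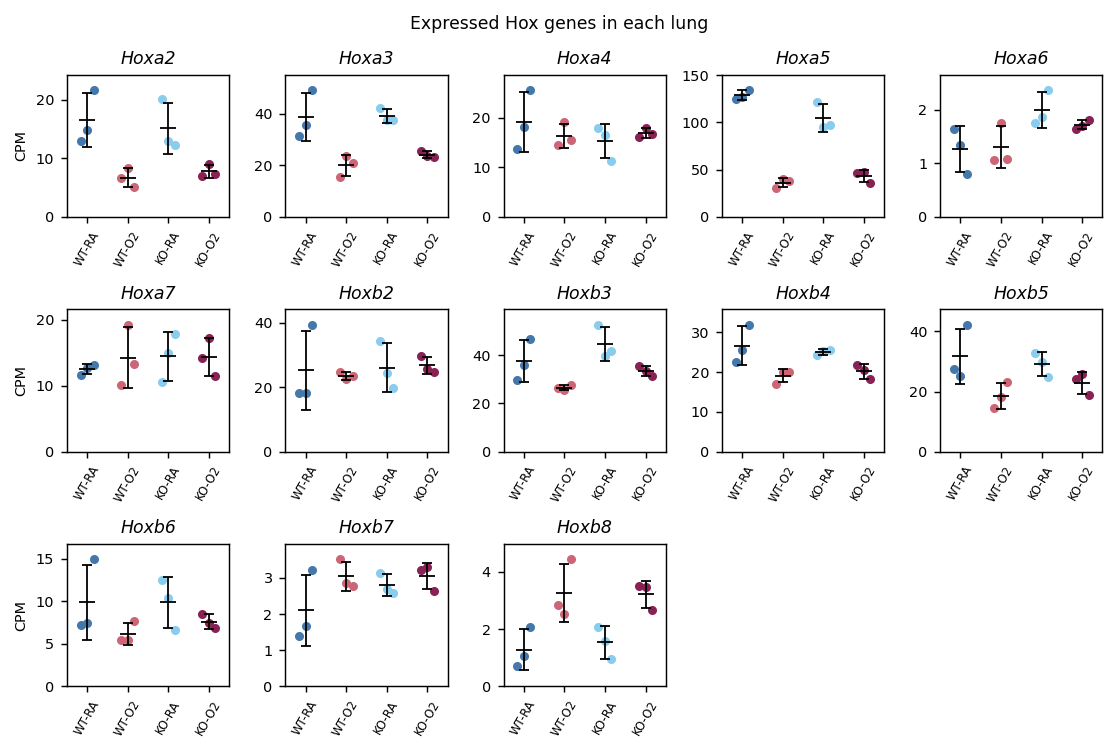
CPM of the 13 expressed Hox genes in each of the 12 lungs by group, with each point a mouse and the bars the mean ± SD of 3. Hoxa2, Hoxa3, Hoxa5, Hoxb3 and Hoxb4 are lower in every hyperoxic lung of both genotypes and Hoxb8 is higher, while Hoxa4, Hoxa6, Hoxa7, Hoxb2, Hoxb6 and Hoxb7 overlap.

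Over the tested members, 8 had hyperoxia values entirely below room air in wild type, against 25.2% of all genes, and 3 entirely above, against 24.6%. The 8 included Hoxb1 and Hoxd9, which were below 1 CPM and may have passed the filter through their higher group. The 3 included Hoxc4, whose lowest WT-O2 and highest WT-RA lungs had the same 5 counts and differed by scaling only. In GSDMD-KO 7 lay entirely below (26.0% of all genes) and 1 entirely above (26.4%). By cluster, the Hoxa sum went from 217 ± 25.2 CPM in WT-RA to 94.9 ± 16.9 CPM in WT-O2 and from 191 ± 20.6 CPM in KO-RA to 109 ± 10.7 CPM in KO-O2 (SD, n = 3). The Hoxb sum went from 135 ± 40.5 to 101 ± 7.76 CPM and from 140 ± 20.6 to 118 ± 11.2 CPM. The Hoxa share of all Hox reads was 61.8% in WT-RA, 57.2% in KO-RA, 47.8% in WT-O2 and 47.4% in KO-O2. The A and B clusters thus contributed nearly equal reads in hyperoxia. The Hoxa share includes Hoxa5, which alone held 37.0% of the Hox reads in WT-RA and 31.3% in KO-RA. In WT-O2 and KO-O2 Hoxa5 held 18.2% and 18.9%.

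The 4 promoters shown are those of the gene that fell most, an anterior gene that fell, a smaller fall and the gene that rose. They are the 250 bases before the start of the RefSeq gene on mouse build GRCm38.p6, written 5′ to 3′ on the strand of the gene. Capitals mark motifs that were searched for on both strands: TGATTGAT, a Pbx-Hox sequence, in Hoxa2, AGGTCA, a nuclear receptor sequence that retinoic acid receptors bind, in Hoxb4, and TTTATG, a Cdx sequence, and TATAAA, the TATA box, in Hoxb8. The capitals do not overlap each other. They lie at chr6:52204588-52204837 (minus strand, Hoxa5), chr6:52164832-52165081 (minus strand, Hoxa2), chr11:96318017-96318266 (plus strand, Hoxb4) and chr11:96281655-96281904 (plus strand, Hoxb8).
Hoxa5: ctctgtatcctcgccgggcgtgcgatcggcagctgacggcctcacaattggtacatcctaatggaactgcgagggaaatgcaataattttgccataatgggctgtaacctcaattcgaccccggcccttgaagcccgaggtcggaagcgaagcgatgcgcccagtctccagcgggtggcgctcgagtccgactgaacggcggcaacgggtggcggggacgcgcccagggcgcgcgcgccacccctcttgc
Hoxa2: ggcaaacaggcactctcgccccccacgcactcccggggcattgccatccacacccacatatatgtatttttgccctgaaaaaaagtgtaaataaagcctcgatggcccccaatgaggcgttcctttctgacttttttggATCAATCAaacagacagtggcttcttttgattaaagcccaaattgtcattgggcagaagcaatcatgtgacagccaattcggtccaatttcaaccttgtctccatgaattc
Hoxb4: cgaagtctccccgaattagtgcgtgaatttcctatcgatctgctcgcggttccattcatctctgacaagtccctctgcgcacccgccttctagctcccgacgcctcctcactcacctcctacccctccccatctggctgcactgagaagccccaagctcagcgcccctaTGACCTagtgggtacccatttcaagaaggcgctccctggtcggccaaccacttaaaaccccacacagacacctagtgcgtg
Hoxb8: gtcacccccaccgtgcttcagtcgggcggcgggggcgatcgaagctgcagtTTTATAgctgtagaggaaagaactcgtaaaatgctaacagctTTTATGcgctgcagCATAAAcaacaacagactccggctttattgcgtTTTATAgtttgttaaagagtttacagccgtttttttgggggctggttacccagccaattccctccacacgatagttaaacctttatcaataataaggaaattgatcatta

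The Hoxa5 window held 28 CpG dinucleotides and no match to the motifs searched, whereas that of Hoxa2 held 6. Entries were found for 22 of the 38 genes (24 promoters), whose median was 12.5 CpG in 250 bases, against 6.0 over all 32851 promoters. TGATTGAT occurred in 2 of the 24 Hox promoters, of Hoxa2 and Hoxd11, and in 0.670% of all promoters. AGGTCA occurred in 6 of the 24 Hox promoters and 4607 of all, TTTATG in 20.8% and 10.8%, and TATAAA in 16.7% and 12.4%. Of the other sequences searched, TAATTA, the Hox core, occurred in 2 of the 24 Hox promoters, both of Hoxd11, and in 4.84% of all. TGATTAAT occurred in 0% and 0.633%, and CACGTG, the E box, in 16.7% and 6.02%. A match describes letters in the window and not a bound site.

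Among members below 1 CPM, Hoxd9 was 0.768, 0.572 and 0.619 CPM in WT-RA and 0.307, 0.344 and 0.372 CPM in WT-O2 (log2 fold change -0.93, edgeR adjusted p = 0.0345), and it changed alike in direction in GSDMD-KO (-0.90, edgeR adjusted p = 0.0315). It missed the threshold without WT-RA replicate 1 (-0.80) or WT-O2 replicate 1 (-0.86) in wild type and without KO-RA replicate 2 (-0.76) in GSDMD-KO. Hoxb1 was called lower in wild type (0.175, 0.269 and 0.585 CPM against 0.102, 0.138 and 0.068 CPM), with a log2 fold change of -1.70 (edgeR adjusted p = 0.0392) that was -1.08 without WT-RA replicate 3 and -1.48 without WT-O2 replicate 3, past the threshold in neither case. Hoxc4 and Hoxc13 were called higher in wild type at log2 fold changes of 1.94 and 1.52. Hoxc4 was 0 to 0.168 CPM in WT-RA and 0.169 to 0.511 CPM in WT-O2. Its highest WT-RA lung and its lowest WT-O2 lung both had 5 counts. Hoxc13 was 0.035 to 0.101 CPM in WT-RA and no more than 0.236 CPM in WT-O2. Neither Hoxc4 nor Hoxc13 passed in GSDMD-KO, where KO-RA lungs were already at 0.478 to 0.576 CPM of Hoxc4 and 0.205 to 0.475 CPM of Hoxc13. Hoxc4 missed the threshold without either of 2 WT-RA or 2 WT-O2 lungs, and Hoxc13 without any of 8 lungs.

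The effect of GSDMD deficiency on the Hox genes was compared within each exposure. In hyperoxia, 0 of the 18 passed an adjusted p of 0.1 between KO-O2 and WT-O2 (edgeR), against 0.0416% of all genes, and DESeq2 also gave 0. At an unadjusted p under 0.05 there were 2, Hoxb1 and Hoxb3, against 6.21% of all genes. The KO-O2 mean was the higher in 16 of 18, or 14 of 18 when levels were scaled by library totals alone, with a median log2 difference of 0.27 where that of all genes was 0.00. The 18 were measured in the same lungs and are not independent of each other. The summed Hox level overlapped, at 204 to 242 CPM in KO-O2 and 176 to 212 CPM in WT-O2. For 4 genes, Hoxb1, Hoxb2, Hoxb3 and Hoxd9, every KO-O2 lung lay above every WT-O2 lung, against 6.36% of all genes. Of these, Hoxb1 and Hoxd9 were below 1 CPM in every group. Both may have passed the filter through a group in which they were higher, so their part in these counts carries little weight. Hoxb3 was 31.3 to 35.7 CPM in KO-O2 and 25.7 to 27.7 CPM in WT-O2 (log2 difference 0.33, SE 0.14, edgeR adjusted p = 0.774), and Hoxa5 differed by 0.26 (SE 0.13, edgeR adjusted p = 0.818).

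In room air, 0 of the 18 passed between KO-RA and WT-RA with edgeR, against 0.488% of all genes, and DESeq2 gave 0 as well. At an unadjusted p under 0.05 there were 4 (10.5% of all genes): Hoxa5 at -0.30 on the log2 scale (edgeR adjusted p = 0.403), Hoxa6 at 0.66 (0.437), Hoxc4 at 2.43 (0.252) and Hoxc13 at 2.34 (0.167). Of these, Hoxc4 and Hoxc13 were below 1 CPM in every group and may have passed the filter through a group in which they were higher. Hoxa5 was lower in all 3 KO-RA lungs (95.0 to 122 CPM) than in all 3 WT-RA lungs (125 to 135 CPM). Without WT-RA replicate 3, 2 Hox genes passed, and the share of all genes was not taken there.

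The interaction, which asks whether hyperoxia changed a gene by a different amount in the genotypes, gave 0 of 18 at an adjusted p under 0.1 with edgeR (0.00595% of all genes) and 0 with DESeq2. At an unadjusted p under 0.05 there were 3, against 6.72% of all genes: Hoxa5, Hoxb1 and Hoxc13. Hoxa5 fell less in GSDMD-KO than in wild type, by 0.56 on the log2 scale (SE 0.18), which did not pass after adjustment (edgeR adjusted p = 0.534). The corresponding values were 1.78 (SE 0.83, edgeR adjusted p = 0.735) for Hoxb1 and -1.85 (SE 0.85, edgeR adjusted p = 0.734) for Hoxc13. Hoxb1 and Hoxc13 were below 1 CPM in every group and may have passed the filter through a group in which they were higher.

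**Figure D5:**
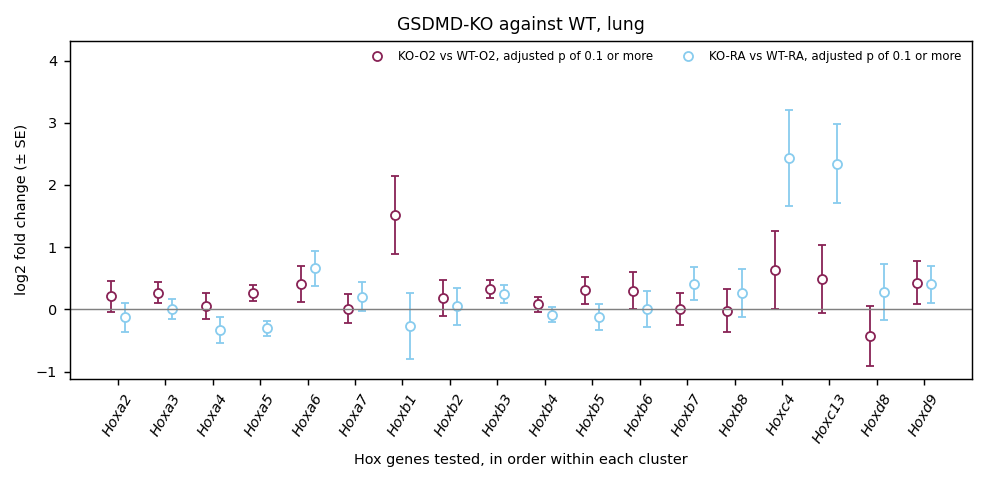
Log2 differences between GSDMD-KO and wild type for the 18 Hox genes tested in the lung, within hyperoxia and within room air, with their SE. All points are open, since 0 of 18 passed an adjusted p of 0.1 in either comparison. In hyperoxia 16 of 18 points lie above 0, all measured in the same lungs and so not independent.

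In the retina, 4 Hox genes passed the filter (Hoxb1, Hoxb3, Hoxc4 and Hoxd9), all below 1 CPM as group means, and 0 of 4 passed an adjusted p of 0.1 by edgeR in each comparison. The share of all 19173 genes that passed was 5.16% for hyperoxia in wild type, 7.82% for hyperoxia in GSDMD-KO, 1.27% for KO-O2 against WT-O2, 0.00522% for KO-RA against WT-RA and 0.00522% for the interaction. At an unadjusted p under 0.05 there was 1 gene in the wild-type hyperoxia comparison and 1 between KO-O2 and WT-O2, Hoxb3 both times, and 0 in the other 3. Hoxb3 was 0.0800, 0.724 and 0.899 CPM in WT-RA and 0.0770, 0.0624 and 0.0340 CPM in WT-O2 (log2 fold change -3.21, SE 1.05, edgeR adjusted p = 0.144). DESeq2 called 1 of the 4 genes lower in that comparison, where its share of all genes was not taken. In GSDMD-KO retinas Hoxb3 was 0.270, 0.168 and 1.03 CPM in room air and 0.174, 0.376 and 0.339 CPM in hyperoxia. The 3 retinas with the highest Hoxb3 were also those with the highest summed level of 6 lens markers, at 18877, 61152 and 30192 CPM against 2.19 to 243 CPM in the other 9, and the part of lens in the Hoxb3 reads was not tested.

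Regulators of Hox expression were described as whole lists, with lower and higher meaning an adjusted p under 0.1 at any fold, which 24.7% and 24.5% of all genes met in wild type and 23.4% and 23.3% in GSDMD-KO. Of 9 Hox cofactors, 5 were lower and 1 higher in WT-O2 lungs, and 2 were lower and 2 higher in KO-O2 lungs. Pknox2 was the only cofactor called in wild type, at 69.3 ± 9.16 CPM in WT-RA and 33.9 ± 3.81 CPM in WT-O2 (SD, n = 3, log2 fold change -1.03, edgeR adjusted p = 1.95e-06), and it changed by -0.78 in GSDMD-KO (edgeR adjusted p = 3.11e-05). Of 26 Polycomb group genes, whose products keep Hox genes silent outside their territories, 11 were lower and 5 higher in wild type and 7 lower and 6 higher in GSDMD-KO. Cbx2, a chromodomain subunit of Polycomb complex 1, was 15.3 ± 3.27 CPM in WT-RA and 8.03 ± 0.951 CPM in WT-O2 (edgeR adjusted p = 0.000159) and 19.5 ± 0.318 and 9.89 ± 0.983 CPM in GSDMD-KO (edgeR adjusted p = 9.82e-05). A list of 12 Trithorax group genes, H3K27 demethylases and genes grouped with them had 3 lower and 2 higher members in both genotypes. Their products maintain active Hox chromatin. In this list Dot1l was higher (109 ± 4.29 against 157 ± 7.68 CPM in wild type) and Men1 lower (59.5 ± 5.23 against 44.7 ± 3.14 CPM). The list of the Cdx genes, activators of posterior Hox genes in the embryo, and other ParaHox genes had 0 of 6 members above the filter in the lung.

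Retinoic acid is a classical inducer of the lower Hox groups. Of 15 retinoic acid pathway genes tested in the lung, 7 were lower and 4 higher in each genotype. The shares of all genes were 24.7% and 24.5% in wild type and 23.4% and 23.3% in GSDMD-KO. At the fold of 2, 3 were called lower and 2 higher in each genotype. Crabp1, a cytoplasmic retinoic acid binding protein, was 52.6 ± 23.1 CPM in WT-RA and 0.514 ± 0.380 CPM in WT-O2 (log2 fold change -6.67, SE 0.52, edgeR adjusted p = 6.55e-06), and 45.6 ± 12.7 and 0.625 ± 0.136 CPM in GSDMD-KO. Rxrg, a retinoid X receptor, was 4.07 ± 1.33 and 0.455 ± 0.173 CPM in wild type (edgeR adjusted p = 3.58e-06), whereas Aldh1a3, a retinoic acid synthesizing enzyme, was higher (1.18 ± 0.655 against 11.4 ± 4.23 CPM, edgeR adjusted p = 4.52e-05).

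Genes next to the clusters serve as their surroundings. Of the 24 genes nearest to the cluster ends, 3 on each side, 22 were tested, 8 were lower and 2 higher in WT-O2 (24.7% and 24.5% of all genes), 5 were lower and 3 higher in KO-O2 (23.4% and 23.3%), and 0 were called at the fold of 2 in either genotype. Skap2, the nearest gene at the anterior end of the A cluster, was 65.9 ± 1.30 CPM in WT-RA and 50.4 ± 4.10 CPM in WT-O2 (log2 fold change -0.39, SE 0.08, edgeR adjusted p = 0.00188). Skap1, the gene beyond Hoxb1, changed by -0.87 in wild type (edgeR adjusted p = 0.00282). Evx1 and Evx2, the homeobox genes at the posterior ends of the A and D clusters, were at 0 CPM in all lungs or at no more than 0.0116 CPM as a group mean.

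Markers of lung cell types also moved with hyperoxia, by the same threshold that 24.7% of all genes passed as lower and 24.5% as higher in wild type and 23.4% and 23.3% in GSDMD-KO. Of 15 mesenchymal transcription factors, 8 were lower and 6 higher in wild type and 5 lower and 7 higher in GSDMD-KO. Foxf1 was 375 ± 64.8 CPM in WT-RA and 206 ± 25.8 CPM in WT-O2 (edgeR adjusted p = 6.82e-05), and Gli2 17.5 ± 2.98 and 36.6 ± 1.88 CPM (edgeR adjusted p = 5.28e-06). Of 12 fibroblast markers, 2 were lower and 6 higher in wild type, and 2 lower and 7 higher in GSDMD-KO. Their median log2 fold change was 0.26 in wild type and 0.34 in GSDMD-KO. The fibroblast markers summed to 15965 to 20003 CPM in WT-RA and 16147 to 17878 CPM in WT-O2. Pdgfra, a marker of alveolar fibroblasts, went against that median, as 1 of the 2 lower in each genotype. It had 271 ± 89.9 CPM in WT-RA against 59.0 ± 6.96 CPM in WT-O2 (edgeR adjusted p = 8.48e-06), and 273 ± 31.4 against 48.0 ± 5.19 CPM in GSDMD-KO (edgeR adjusted p = 3.73e-06). Of 8 smooth muscle and pericyte markers, 2 were lower and 5 higher in wild type, and of 7 endothelial markers 4 were lower and 1 higher. All 7 erythroid markers tested were lower in wild type and 1 in GSDMD-KO, 3 of 7 leukocyte markers were lower and 3 higher in wild type, 1 of 5 mesothelial markers was lower and 2 higher in both genotypes, and liver markers summed to 171 CPM in 1 KO-O2 lung. Of 4 thymus markers tested, 3 were lower in wild type and 0 in GSDMD-KO, and their list summed to 10.1 to 14.1 CPM in WT-RA and 3.03 to 6.17 CPM in WT-O2. Of 6 heart markers, 3 were lower in wild type and 1 in GSDMD-KO, with sums of 176 to 378 CPM in WT-RA and 186 to 223 CPM in WT-O2. Of 4 oesophagus and skeletal muscle markers tested, 1 was lower and 2 higher in wild type, and 1 was lower in GSDMD-KO. Summed epithelial markers were 31349 to 35720 CPM in WT-RA and 23495 to 26907 CPM in WT-O2. Spinal cord and hindbrain neuron markers, whose cells express many Hox genes, summed to no more than 0.244 CPM in any lung. The part of cell composition in the Hox results was not tested.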

How the data were processed

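Levels came from bulk RNA sequencing of 24 samples. The authors assigned reads to mouse transcripts with kallisto, summed them per gene with tximport and deposited 1 table of expected counts (estimated counts, not normalized) per tissue. The settings and the counting strand are not given in the sources used here, and the build is named differently by the labels (mm10) and the supplement. Whole numbers (within 0.01) made up 55.8% of nonzero lung values and 2.20% of nonzero retina values, so retina counts may have been scaled, and tests stayed within a tissue.

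Counts were rounded and fitted in R 4.3.3 with edgeR 4.0.16 (TMM, filterByExpr by group, quasi-likelihood with robust=TRUE), all 12 samples of a tissue in 1 model, Benjamini-Hochberg over all genes. This left 16819 lung and 19173 retina genes. A call required a fold of 2 with p below 0.05 and adjusted p below 0.1. Each SE was derived by dividing the size of the log2 fold change by the root of its F statistic. Alternatives included DESeq2 1.42.0. The test was tried on simulated data first. Full statistics were given for expressed members that were called and the 8 with the highest level per kilobase, and for other lists for at most 3 genes of smallest p. P-values measure the spread between the mice labelled. Sums, ratios and levels between genes are descriptions. The members and lists were chosen with earlier results of these data known. Antisense genes share exonic bases with Hoxa3, Hoxa4, Hoxa7, Hoxa11, Hoxb2, Hoxb3, Hoxb5 and Hoxd3 in GENCODE M21, so reads of these could not be told apart if counting ignored strand. The shared part is 2250 of 3893 bases in Hoxb3 and 953 of 1628 in Hoxb2. Other genes overlap on the same strand, where strand does not separate reads. Among them, Gm28308 shares 267 bases with Hoxa2 and 261 with Hoxa3, and Gm28230 shares 2225 with Hoxd3. Noncoding transcripts of the clusters (20 names) were not analysed here. Names came from the identifiers by a GRCm38 annotation. Males had a summed Y-linked level above 20 CPM. 1 of the 39 members is not reported here and stayed in the fits but in none of the counts and sums over Hox genes.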

Additional observations from a re-analysis of the deposited data

How the results depend on the processing

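Each of 28 counts over Hox genes was repeated under 16 to 19 alternative settings, which gave 510 repeats. Of these, 488 stayed within 1.5 times the value given and 22 did not, and no direction of a changed gene reversed. Every retinal count and every lung count for genotype or interaction was 0, and a 0 that stayed 0 is among the 488. The 488 therefore overstate how stable the counts above 0 were. In WT-O2 lungs the higher Hox genes, called or changed at any size, went from 3 to 1 when only the 6 samples compared were fitted, and ranged from 1 to 4 when 1 mouse was left out, with 1 without WT-O2 replicate 1. The called lower genes went from 3 to 7 at a fold of 1.5 and ranged from 2 to 5, with 5 without WT-RA replicate 2. In KO-O2 lungs the called lower genes went from 1 to 2 with library totals only, 2 with sex as a covariate and 4 at a fold of 1.5, and ranged from 1 to 3, with 3 without KO-RA replicate 3. The genes lower at any size there ranged from 4 to 7, and the higher gene, called or at any size, from 0 to 1, with 0 called without KO-O2 replicate 1 or KO-RA replicate 3. Between KO-RA and WT-RA the genes changed at any size ranged from 0 to 2. In retinas, 3 Hox genes were expressed at a threshold of 0.5 CPM in place of 0, and DESeq2 called 1 gene lower in WT-O2 in place of 0, also at any size. The share of all genes that passed was not taken under the alternative settings, so these counts cannot be set against it. Of the 19 changes of single lung Hox genes, 10 held in all alternatives run, among them Hoxa2, Hoxa3 and Hoxa5 in both genotypes. Hoxa5 ranged from -1.90 to -1.72 in wild type and from -1.33 to -1.15 in GSDMD-KO. Library totals alone moved the median of all genes by 0.24 in the wild-type hyperoxia comparison of the retina and by 0.17 between KO-RA and WT-RA there. No paired analysis was possible because the labels number no mice across groups. The cause of these changes was not tested. Counting error weighs most on the Hox genes below 1 CPM and on Hoxa6, Hoxb7 and Hoxb8. The highest lung group means of Hoxa6, Hoxb7 and Hoxb8 were 1.99, 3.05 and 3.26 CPM. The other expressed genes peaked at 9.89 CPM (Hoxb6) or more, so counting error weighs less on them. Variation among animals, of which each group had only 3, is a limit for every Hox gene.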
